A study of Drosophila melanogaster with 12 samples.

Results

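A total of 57 genes known in the deposited table by an annotation number (CG followed by digits) were high in eggs that lack the poly(A) polymerase Wispy. They were chosen by their values. On the scale log2(value + 1), the mutant egg exceeded the wild type egg by 0.8 or more in both same-numbered replicates, and 16 numbers were left out by name, of which 13 were in the table and 3 passed the difference. Of these 13, 12 are subunits of the respiratory complexes or the ATP synthase, and the other is Tim23. The 3 that passed were ATPsynC, ATPsynF and COX7A. The 57 genes are 2.73% of the 2085 annotation-number records and stand among 5421 records in all. A further 128 records with a gene name passed the same difference, and 188 of all records did (3.47%). How the deposited values were normalised is not stated in the labels or the table. After median-of-ratios scaling 346 of all records passed, the 57 genes among them. The current RefSeq annotation gives 27 of the 57 a symbol other than the number, and 30 keep the number. Apart from the numbers left out, the group is thus one of labelling and not of function. With symbols and synonyms together, 33 could be placed by role. The roles were lipid metabolism, respiration, lysosome and immunity, other enzymes, membranes, RNA and transcription, and the cytoskeleton with a few others. The remaining 24 have no role that the annotation used here gives.

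RNA was measured by sequencing in Drosophila melanogaster oocytes and eggs, with 12 libraries in 6 groups of 2 replicates that the labels call biological. Wild type flies were w1118, and the mutant carried wispKG5287, which the labels describe as a null allele and which was compared at the same 3 stages. Immature oocytes were of oogenesis stages 9-10 and mature oocytes of stage 14, both dissected by hand from females 3 or 4 days old. Activated eggs were unfertilised, 0-1 h old and collected at 25 °C. Their mothers had mated with sterile males born to tud1 mothers. The protocol names w1118 virgin females as the mothers and does not describe the mutant mothers separately. The labels do not say whether the mutant stock shares the background of w1118, so the wisp allele and the rest of the stock cannot be told apart, and they do not give the number of oocytes or eggs pooled in a library.

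A mature Drosophila oocyte is nearly silent in transcription and lives on mRNA made earlier by the nurse cells. At maturation and egg activation, the proteins made from these maternal mRNAs change. Part of the change runs through the lengthening and shortening of poly(A) tails in the cytoplasm and through mRNA decay. Wispy belongs to the GLD-2 family of cytoplasmic poly(A) polymerases and lengthens these tails, and eggs from wispy mothers arrest early. The libraries measured the relative amount of RNA after removal of ribosomal RNA and not the length of the tails. As in any bulk sample, fewer cells of a type and less RNA per cell cannot be told apart.

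The values are the authors' normalised read counts, a relative level per transcript record, and summed to 11081267 to 14089899 per library. Sequencing depth behind them is unknown, and 0 spike-in rows were in the table. Each listed record was at 100.07 or more in every library, so a gene under that level in any library is outside the table, and a difference near that level can be understated. The wisp transcript (X:11893943-11899920, dm6) was at 3623 to 17226 in the 6 wild type libraries and at 188.5 to 718 in the 6 mutant libraries, so the groups did not overlap and the order followed the labels. Germline and nurse cell markers were all listed (17 of 17) with summed values of 60279 to 95232. Markers of follicle cells (0 of 25), ovarian muscle (0 of 12), blood and fat body (0 of 9), gut (0 of 6), nervous system (0 of 4) and male organs (0 of 7) were not in the table. With such a lower limit, absence may mean a low value in some library only, and their level in each group is unknown. Replicates correlated across records at 0.993 and 0.994 in the mature groups, at 0.957 in wild type and 0.914 in mutant eggs, and at 0.828 and 0.858 in the immature groups.

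In eggs, the comparison that chose the genes, the difference ranged from 0.83 (CG33155) to 2.18 (CG2493) on the log2 scale. The median was 1.07, a 2.09-fold higher value, where the median of all records was -0.16. By same-numbered replicates the medians were 0.99 and 1.06. The limma fit called 51 of the 57 higher, against 7.3% of all records called higher and 17.7% called lower, and since the rule used these values nothing is read from that count. The genes just inside the limit were CG17163 (0.80 and 1.03 in replicates 1 and 2), ND-13B (0.81 and 1.07) and Pef (0.87 and 0.81). Just outside lay CG34439 (ND-MWFE, 0.985 and 0.798), CG9350 (ND-B14.7, 0.933 and 0.796) and CG3192 (ND-ASHI, 1.008 and 0.791), all 3 subunits of respiratory complex I. The limit therefore cut through a continuous range, and 88 genes would have passed at 0.7 and 20 at 1.

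**Figure D1:**
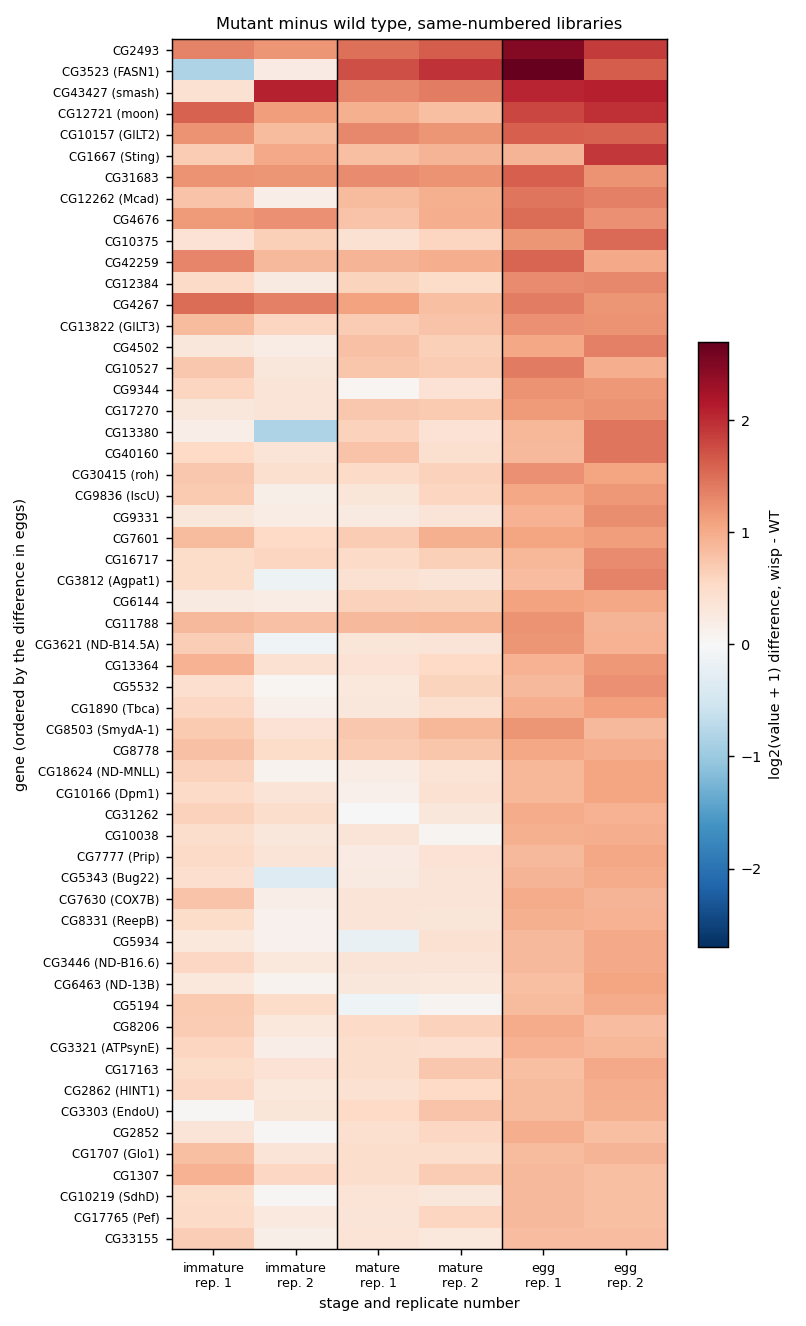
Difference between mutant and wild type in same-numbered libraries, as log2(value + 1), for each of the 57 genes (rows, ordered by the difference in eggs) in replicate 1 and 2 of immature oocytes, mature oocytes and eggs (columns). The egg columns chose the genes and run from 0.80 to 2.69; the mature columns run from -0.20 to 1.95, and the immature columns from -0.83 to 2.08.

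The rule did not use the mature libraries, so the differences in mature oocytes are free of the choice, while the spread of the fit also draws on the egg libraries. The normalised value was called higher in mutant than in wild type mature oocytes for 9 of the 57 genes, or 15.8%, and lower for none. A call needed an adjusted p under 0.05 (limma without a replicate block, Benjamini-Hochberg over all 5421 records). Of all records 0.683% were called higher and 9.37% lower. At an unadjusted p under 0.05, 27 of the 57 were higher and 0 lower, where 4.26% and 17.8% of all records were. The 9 make up 24.3% of the 37 records called higher in mature oocytes. Among the other annotation-number records 6 of 2028 were called higher, or 0.296%. Among the named records that passed the same egg difference it was 8 of 128, or 6.25%. At an unadjusted limma p under 0.05, however, 64 of these 128 were higher (50%) and 0 lower, a share like that of the 57. The median difference of the 57 genes was 0.50, a 1.42-fold higher value, beside -0.03 for all records, -0.09 for the other annotation-number records and 0.55 for the named ones with the same egg difference. Both mutant values lay above both wild type values for 54 genes, or 94.7%. Of all records 30.2% did so, and of the 128 named records 94.5%. The exceptions among the 57 were CG31262, CG5934 and CG5194, and CG5194 had the lowest difference, -0.02 (95% interval -0.37 to 0.33).

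The count of 9 rests on all 4 mature libraries. It fell when any 1 of them was left out, and so did the calls over all records. The median difference of the 57 genes was 0.53 without replicate 1 and 0.48 without replicate 2 of the mutant. It was 0.52 without replicate 1 and 0.56 without replicate 2 of wild type, and that of all records was -0.11 to 0.03 in these 4 fits. CG2493 differed by 1.40 to 1.72, CG31683 by 1.203 to 1.300 and GILT2 by 1.205 to 1.286 in them. The spread in the fit was pooled over the 12 libraries, the egg libraries that chose the genes among them. A fit on the 4 mature libraries alone called 47 of the 57 higher, where it called 14.8% of all records higher. With quantile normalisation 3 were called, against 0.129% of all records.

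**Figure D2:**
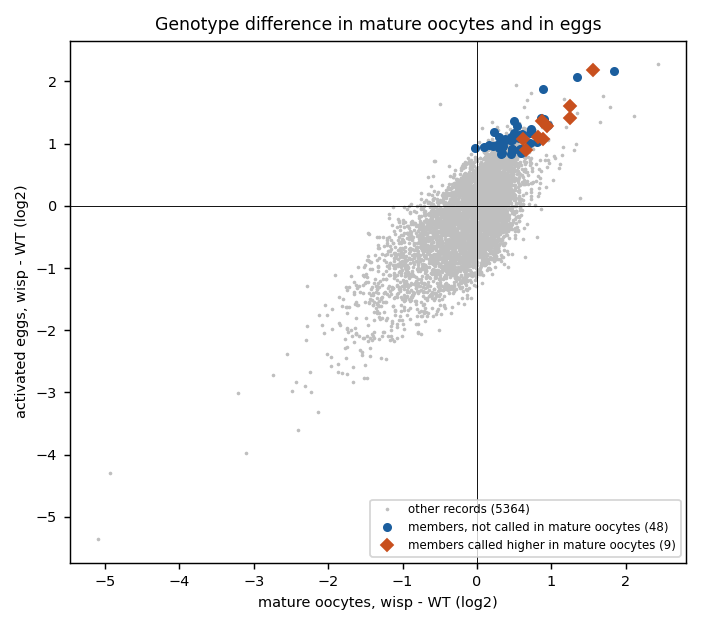
Mutant minus wild type in mature oocytes (horizontal axis) and in activated eggs (vertical axis), both as log2 differences of group means, for the 57 genes and the other 5364 records. The 57 genes lie above 0.8 on the vertical axis by choice, and 56 of them lie to the right of 0 on the horizontal axis; the 9 diamonds were called higher in mature oocytes.

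CG2493 (2L:20461585-20463444) has the RefSeq synonym Prcp, in humans the lysosomal protease prolylcarboxypeptidase. Its normalised read count in mature oocytes was 542 and 432 in wild type and 1511 and 1349 in the mutant. It stood at 506 and 523 against 1274 and 1189 in immature oocytes and at 309 and 359 against 1718 and 1331 in eggs. Every mutant library was above every wild type library of all 3 stages. The log2 difference in mature oocytes was 1.56 (SE 0.19, adjusted p = 0.00232 in the limma fit). In immature oocytes it was 1.26 with an adjusted p of 0.0513, just outside the threshold.

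CG31683 (2L:20447734-20449964) was the gene that passed the test at both oocyte stages. In mature oocytes it measured 725 and 776 in wild type and 1769 and 1806 in the mutant. Immature oocytes gave 718 and 700.5 in wild type and 1669 and 1609 in the mutant, and eggs 654 and 724 against 1995 and 1682. Within each genotype the 6 values stayed close together over the stages and the genotypes did not overlap. The log2 difference was 1.25 in mature oocytes (SE 0.16, adjusted p = 0.00248) and 1.21 in immature oocytes (SE 0.16, adjusted p = 0.0353, limma). Leaving out any one of the 4 immature libraries ended the immature call, with adjusted p from 0.0877 to 0.189.

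GILT2 (CG10157, 3R:23678895-23679855) is a thiol reductase of the GILT family, which in mammals cuts disulphide bonds in lysosomes. Mature oocytes gave 277 and 293 in wild type and 685 and 669 in the mutant. The values were 284 and 354 against 655 and 637 in immature oocytes, and 292 and 252 against 901 and 764 in eggs. All 6 mutant values exceeded all 6 wild type values. The mature difference was 1.25 on the log2 scale (SE 0.16, adjusted p = 0.00273, limma), and the immature one was 1.02 (adjusted p = 0.0526).

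CG4267, CG11788 and CG4676 followed, none with a role in the annotation used here. CG4267 (2L:2242378-2245274) went from 398 and 488 in wild type to 846 and 854 in mutant mature oocytes, a log2 difference of 0.95 (SE 0.22, adjusted p = 0.029, limma). Its immature values were 459 and 545 against 1306 and 1410.1, the largest immature difference of the 57 genes (1.44, adjusted p = 0.0513). Its groups did not overlap at either stage, and the test of the difference between the stages did not call it. CG11788 (2R:20274597-20276142) measured 204 and 200.04 in wild type and 375 and 374 in mutant mature oocytes (0.89, SE 0.14, adjusted p = 0.00558, limma). CG4676 (2R:13235980-13237055), with wild type values near the lower limit of the table, measured 149.9 and 151 against 258 and 299 there (0.88, SE 0.17, adjusted p = 0.0132, limma). Both had non-overlapping groups at each stage.

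The other 3 called genes differed less. CG7601, with the synonym DHRS7B of a human short-chain dehydrogenase, was at 291 and 260.1 in wild type and 467 and 503 in mutant mature oocytes (0.81, SE 0.19, adjusted p = 0.0299, limma). EndoU (CG3303), an endoribonuclease that cuts RNA at uridines, was at 779.5 and 767 against 1134 and 1318 (0.66, SE 0.16, adjusted p = 0.0313, limma). In immature oocytes the EndoU values, 805 and 674 against 825 and 842, lay close together, with a difference of 0.18 (95% interval -0.18 to 0.53). CG6144 had 400.4 and 419.6 against 619 and 638 in mature oocytes (0.61, SE 0.13, adjusted p = 0.0218, limma), and 33% of its exon length is shared with other genes. Its immature difference was 0.22 (95% interval -0.09 to 0.52). CG17163 missed the threshold at an adjusted p of 0.0502, with 1277 and 1287 in wild type and 1787 and 2145 in the mutant.

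**Figure D3:**
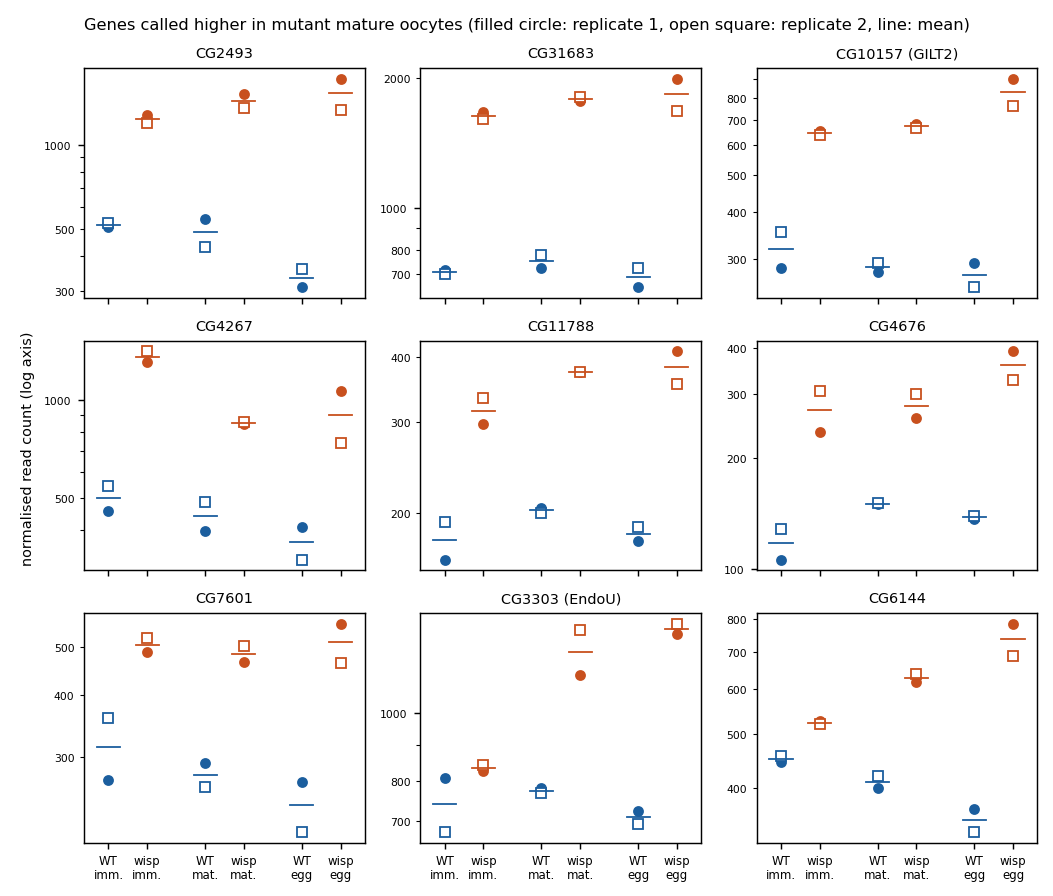
Normalised read count (log axis, own range in each panel) in each library for the 9 genes called higher in mutant mature oocytes, by genotype and stage; filled circles are replicate 1, open squares replicate 2, and lines the mean of the 2. In each panel both mutant values lie above both wild type values at each of the 3 stages.

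In immature oocytes the genes were also mostly higher in the mutant, with 1 of 57 called by limma without a replicate block (CG31683, 1.75%) where 0.0369% of all records were called higher and 0.0738% lower. At an unadjusted p under 0.05, 25 were higher and 0 lower, where 4.06% and 2.82% of all records were. Of the 128 named records with the same egg difference, 29.7% were higher and 0 lower. The median difference of the 57 genes was 0.44, a 1.36-fold higher value, beside 0.01 for all records and 0.46 for those named records. Both mutant values were above both wild type values for 43 of the 57, or 75.4%. Of all records 15.9% did so, and of the 128 named records 77.3%. The pairs of libraries were unequal here: the median difference of the 57 was 0.58 in replicate 1 and 0.32 in replicate 2. In 49 of the 57 genes the larger difference was in replicate 1. The named records with the same egg difference had medians of 0.682 and 0.265, so this was not particular to the 57. All records had 0.005 and 0.031.

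A difference of 0.8 or more in both replicates at both oocyte stages, the size the rule asked for in eggs, was found for 6 genes: CG31683, CG2493, CG4267, GILT2, CG42259 and moon. Of all 5421 records, 13 (0.24%) did so at all 3 stages, these 6 among them. The rule already asked for the egg difference, so that share is no background for the 6. In mature oocytes alone 11 of the 57 genes reached it, or 19.3%, where 0.775% of all records did. In immature oocytes 7 of the 57 reached it, or 12.3%, where 0.664% of all records did. Of the named records with the same egg difference, 8.59% reached it in mature and 10.9% in immature oocytes. FASN1, Mcad, smash, Sting and CG11788 reached it in mature and not in immature oocytes, and CG4676 in immature and not in mature oocytes. The test of the difference between the oocyte stages called none of the 57.

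Among the lipid genes, none of 3 passed the test in mature oocytes, and their levels changed with stage very differently. FASN1 (CG3523) encodes fatty acid synthase, which builds palmitate. It was at 9022 and 8769.9 in wild type and 5096 and 10189 in mutant immature oocytes. In mature oocytes the values were 764 and 426 in wild type and 2558 and 1646 in the mutant, and in eggs 329 and 114.78 against 2127 and 360.4. The mutant was above wild type in both mature and both egg pairs, yet the 2 mutant eggs lay far apart and the lower one was close to the higher wild type egg. The difference was 1.85 in mature oocytes (SE 0.82, 95% interval -0.02 to 3.71, adjusted p = 0.233, limma without a replicate block) and -0.30 in immature oocytes (95% interval -2.17 to 1.56). Mcad (CG12262), the medium-chain acyl-CoA dehydrogenase of mitochondrial fatty acid oxidation, measured 3564 and 3394 in wild type and 6399 and 6562 in mutant mature oocytes (0.90, adjusted p = 0.0707). Of the Mcad exons 93% lie over exons of CG7457, and the library kit does not mark strand, so reads of the overlapping genes cannot be told apart. Agpat1 (CG3812), an acyltransferase of phospholipid synthesis, was at 435 and 480.4 against 582 and 608 in mature oocytes (0.38, adjusted p = 0.92).

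The lysosome and immunity genes had 1 of 4 called in mature oocytes, GILT2, and differences from 0.60 to 1.25. GILT3 (CG13822), another member of the thiol reductase family, lies 473 bp from GILT2 on 3R. It measured 510.4 and 480.5 in wild type and 819 and 823 in the mutant (0.73, adjusted p = 0.0591, limma). GILT1, the third family member in the table, is listed by name and differed by 0.71 in eggs. Sting (CG1667), a sensor of cyclic dinucleotides in innate immunity, was at 482 and 632 against 846 and 1193 in mature oocytes (0.86, adjusted p = 0.468). CG40160, with the synonym cSPH242 of a clip-domain serine protease homologue, differed by 0.60 there (adjusted p = 0.415).

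Of the 2 RNA and transcription genes, EndoU was called and moon was not. Moonshiner (moon, CG12721) is a TFIIA-related factor that starts transcription of piRNA clusters in the female germline. It was at 209 and 227 in wild type and 408 and 402 in mutant mature oocytes (0.89, 95% interval 0.11 to 1.67, adjusted p = 0.165, limma). Immature oocytes gave 160.4 and 105 against 484 and 233, and eggs 121 and 148 against 424 and 584. The groups did not overlap at any stage, and the mutant immature replicates lay more than 2-fold apart. Moon lies 172087 bp from wisp on the X chromosome, the nearest of the 9 X-linked genes of the group.

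The 8 respiration genes differed by 0.84 to 1.11 in eggs, a range whose lower end the rule set, and by 0.28 to 0.47 in mature oocytes, where 0 of 8 passed the test. They are the complex I subunits ND-B14.5A, ND-MNLL, ND-B16.6 and ND-13B, the complex II anchor SdhD, COX7B of complex IV, ATPsynE of the ATP synthase, and IscU, the scaffold on which iron-sulphur clusters are built. ATPsynE (CG3321) was at 1284 and 1278 in wild type and 1784 and 1763 in mutant mature oocytes (0.47, adjusted p = 0.144). COX7B (CG7630) was at 1202 and 1292 against 1535 and 1649 (0.35, adjusted p = 0.437). In these genes the mutant mature values were above the wild type ones by less than the fit could call. Over all 63 nuclear genes of the 5 complexes listed in the table by symbol, 20 passed the egg difference (31.7%), 6 of 8 in complex IV, 8 of 12 in the ATP synthase, 5 of 32 in complex I, 1 of 4 in complex II and 0 of 7 in complex III. Their egg differences ran from -0.78 to 1.17 with a median of 0.76. Their median difference was 0.30 in mature oocytes, where 1 (COX7A, left out of the group by name) was called higher and 1 (SdhC) lower.

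The 7 other enzymes included 2 called ones, CG2493 and CG7601. The remainder differed by 0.27 to 0.72 in mature oocytes without passing the test. They are Glo1, which removes methylglyoxal with glutathione, CG9331 (synonym GRHPR, in humans glyoxylate reductase), CG10527 (synonym FAMeT, farnesoic acid O-methyltransferase), the nucleotide hydrolase HINT1, and Dpm1, which makes the mannose donor for glycosylation in the endoplasmic reticulum. CG10527 had the largest of these differences, from 1203 and 1062 to 2027 and 1719 (0.72, adjusted p = 0.0959, limma), and 62% of its exon length lies over an antisense RNA. Among membrane genes, 0 of 3 were called in mature oocytes. The aquaporin Prip (CG7777) was at 3362 and 3265 in wild type and 3929 and 4248 in the mutant (0.30, adjusted p = 0.379). ReepB, which shapes the endoplasmic reticulum, differed by 0.34, and CG31262 (synonym dSLC5A14, a solute carrier) by 0.16 with overlapping groups.

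Of the 6 cytoskeletal and other named genes, 0 were called in mature oocytes, and differences ran from 0.29 to 1.34. Smallish (smash, CG43427), an actomyosin regulator at cell junctions, stood out by size. It was at 1029 and 1024 in wild type and 2514 and 2684 in mutant mature oocytes, and at 372 and 493 against 1550.3 and 2103 in eggs. The immature values were 779.8 and 263 in wild type and 1038 and 1112 in the mutant. The mature replicates agreed closely, but the wild type immature ones differed by more than 2-fold, and with the pooled spread the mature difference of 1.34 (SE 0.43, 95% interval 0.36 to 2.32) had an adjusted p of 0.1. Roh (CG30415) was at 1447 and 1454 against 2073 and 2232 in mature oocytes (0.57, adjusted p = 0.0811). The tubulin cofactor Tbca, the ciliary protein Bug22, the calcium-binding Pef and the SET and MYND domain protein SmydA-1 differed by 0.37, 0.29, 0.46 and 0.80.

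The symbols and synonyms used here give no role to 24 of the 57 genes. These 24 held 5 of the 9 called genes, near their share of the group, so nothing is read from that count. Their mature differences ran from -0.02 to 1.25, with a median of 0.57. CG2852 was the most abundant of the 57 genes per length, with 9641 normalised read counts per kb of transcript averaged over the 12 libraries, ahead of COX7B with 3800 and Mcad with 3333. It was at 7312 and 6103 in wild type and 9802 and 8969.5 in mutant mature oocytes (0.49, 95% interval -0.03 to 1.01, adjusted p = 0.259, limma). CG42259 was at 127 and 127 in wild type and 242 and 252 in the mutant (0.95, adjusted p = 0.0549), and the wild type values are near the lower limit of the table. CG10375 and CG12384, among the 12 largest in eggs, differed by 0.50 and 0.55 in mature oocytes with adjusted p of 0.294 and 0.0983. Across the 57 genes, 8 had a wild type egg value under 200 and 4 (moon, CG4676, CG42259 and CG11788) had both under it.

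Some genes of the group varied between replicates more than between genotypes. In wild type immature oocytes 5 of the 57 had replicates 2-fold or more apart, and in mutant immature oocytes 6, where 20.6% and 17.2% of all records did. In eggs they were 3 in wild type and 5 in the mutant (8.71% and 11.4% of all records), and in mature oocytes 0 (0.166% and 0.129% of all records). These counts are small and the rule used the egg libraries, so no trait of the group is read from them. CG4502 was the extreme. In immature oocytes it was at 938 and 126 in wild type against 1156 and 145 in the mutant, and at 498 and 1524 against 1023 and 3927 in eggs. Replicate 1 was the higher in immature oocytes and replicate 2 in eggs, in both genotypes, and the egg groups overlapped. Agpat1 was the other gene with overlapping egg groups (327 and 612 against 582 and 1541).

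**Figure D4:**
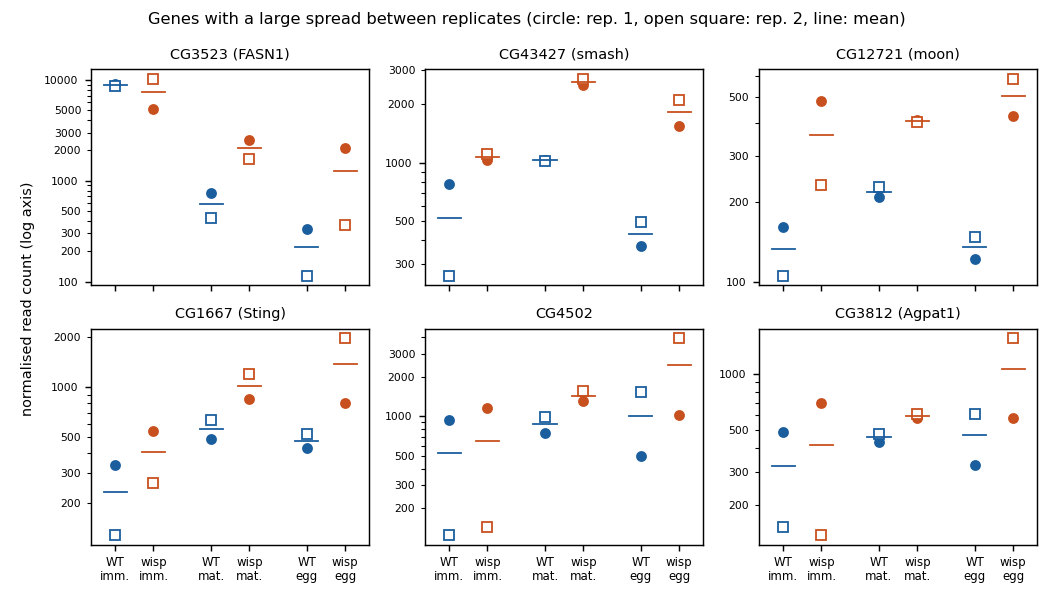
Normalised read count (log axis, own range in each panel) in each library for 6 of the genes with a large spread between replicates, by genotype and stage; circles are replicate 1, open squares replicate 2, and lines the mean of the 2. CG4502 and Agpat1 have overlapping genotypes in eggs, and the mutant eggs of FASN1 differ from each other more than the group means of the 2 genotypes do in mature oocytes.

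Maturation, from stages 9-10 to stage 14, was tested without egg libraries in the contrast. No gene of the group was called in wild type (0 of 57, and 0 of all records in either direction), and at an unadjusted p under 0.05, 3 were higher and 3 lower (5.77% and 3.86% of all records). In the mutant 0 of 57 were called, where 1.68% of all records were called higher and 11.4% lower, with 4 higher and 5 lower at an unadjusted p under 0.05 (9.59% and 20.5% of all records). The median change was -0.09 in wild type and -0.02 in the mutant, beside 0.14 and 0.05 for all records. The test of the difference between genotypes in this change called 0 of 57, where 0 records were called higher and 1.03% lower, and at an unadjusted p under 0.05 it gave 0 higher and 1 lower, CG5194 (-0.62), where 0.148% and 11.8% of all records were. FASN1 had the most negative change at maturation, -3.96 in wild type and -1.81 in the mutant on the log2 scale, and the difference of these changes, 2.15, had an unadjusted p of 0.0981.

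From mature oocyte to egg, values are given as a description, since these changes share the egg libraries that chose the genes. The median change was -0.27 in wild type and 0.25 in the mutant, beside 0.02 and -0.03 for all records. The change was below 0 in wild type and above 0 in the mutant for 50 of the 57 genes. It was below 0 in both genotypes for FASN1, smash, CG10527, CG31262 and Prip. CG2493 changed by -0.54 in wild type and 0.08 in the mutant, and smash by -1.26 and -0.52. The genotype difference was larger in eggs than in mature oocytes for all 57, by 0.16 to 1.00 with a median of 0.55, an ordering that the choice by egg values partly fixes.

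The transcripts of the group were short. Their median length was 1029 nt, beside 1882 nt for the other annotation-number records, 2090 nt for all records and 790 nt for the named records with the same egg difference. Of the 57, 53 were shorter than the median of all records, and with all records split by length into 4 classes of like size, 37 were in the shortest class, 16 in the next, 1 in the third and 3 in the longest. The median coding length was 615 nt against 1434 nt, and the median 3′ UTR length 214 nt against 284 nt. Length also went with the egg difference over the whole table: by class of length, from short to long, the median difference was 0.30, 0.10, -0.13 and -0.45 in replicate 1 and 0.42, -0.05, -0.44 and -0.92 in replicate 2. In mature oocytes the 4 medians were between -0.06 and -0.01. For a length correction, the deviation of each record from its mean over the 12 libraries was fitted by a smooth trend on length. The trend was fitted in each library and subtracted. After it all 57 genes stayed above 0 in both egg pairs, the lowest at 0.15, and 22 stayed at 0.8 or more in both. The medians of the 57 were then 0.77 and 0.84. Over all records 107 passed after the same correction, where 188 had passed before it. Those 22 include CG2493, FASN1, smash, moon, GILT2, CG31683, Mcad, CG4676, CG4267 and CG11788, and none of the 8 respiration genes. In mature oocytes the same correction raised the count of called genes from 9 to 19, where 1.85% of all records were then called higher. The part of length in the egg difference of single genes was not tested.

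**Figure D5:**
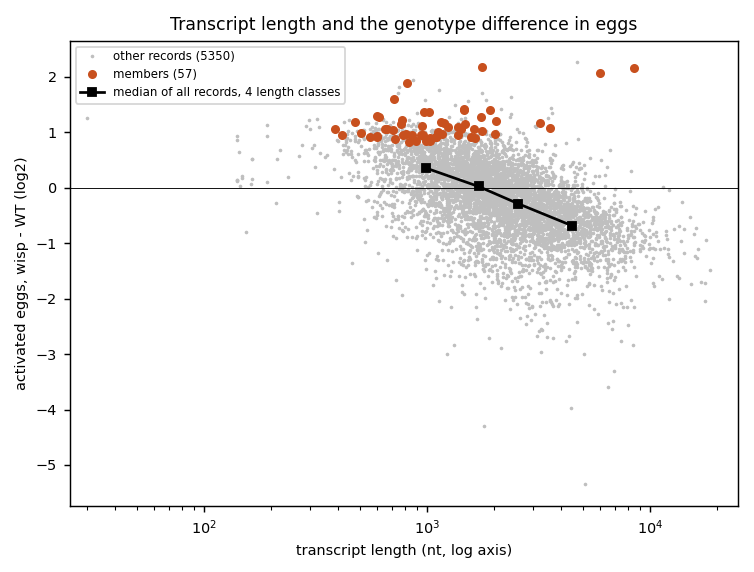
Log2 difference between mutant and wild type eggs against transcript length (log axis) for the 57 genes and the other records with a gene model, with squares at the median of all records in each of the 4 length classes. The squares are lower for longer transcripts; 37 of the 57 genes lie in the shortest class, and FASN1, with the longest transcript of the group, lies among the largest differences.

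By position the 57 genes were spread over the main chromosome arms, with 9 on X, 10 on 2L, 16 on 2R, 7 on 3L and 15 on 3R. Of the annotation-number records, 20.0%, 16.9%, 18.5%, 20.4% and 23.9% lie on these arms. Within 20000 bp of each other lay 3 pairs. CG31683 and CG2493 are 11620 bp apart on 2L, on the same strand. Cdc23 (2L:20459342-20461729), which lies between them and overlaps CG2493 by 145 bp, differed by -0.49 in immature oocytes, -0.44 in mature oocytes and -0.82 in eggs. The pair GILT3 (3R:23677358-23678421) and GILT2 lie side by side, and the next gene, eIF-3p66, differed by 0.23 in mature oocytes and -0.03 in eggs. SdhD and CG10375 are 7111 bp apart with CG10217 and CG10214 between them, and 52% of the CG10375 exons overlap the gene tst. Exons of 29 of the 57 genes overlap another gene by any length, 13 by 10% or more and 7 by 50% or more. The 7 are Mcad, CG13380, ND-MNLL, CG33155, CG10527, CG10375 and Glo1, and their values may hold reads of the overlapping gene.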

How the data were processed

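Each library's values are the authors' normalised read counts, a deposited signal per transcript record that is never negative and not whole; the table held 5422 records, of which 1 was a duplicate and was removed. STAR 2.4.2a, HTSeq, RSEM 1.2.25 and the build dm6 are named in the submitters' processing notes without their roles. Per the labels' protocols, TRIzol RNA was depleted of ribosomal RNA by Ribo-Zero before TruSeq v2 library preparation. The best step search made 16.0% to 19.0% of low values whole within 0.05 (chance gives 10%), so depth is unknown and no counting interval is given.

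Values were analysed as log2(value + 1), and fold changes are on that scale. The 6 group means were fitted with limma 3.58.1 in R 4.3.3 over 5421 records and 12 libraries with an intensity trend (6 residual and 2.43 prior degrees of freedom). A call needed an adjusted p under 0.05 (Benjamini-Hochberg, over all records). The intervals are 95% intervals from this fit. The scripts were tested on simulated data. Egg contrasts are given as a description with no p, since they chose the genes. The fit had no replicate block, since no label ties the replicate numbers to a shared batch or day.

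The members, lists and tests were chosen with earlier results of these data known. Genes were named by rule: the 12 largest in eggs, the 6 with the highest mean value, called genes with the largest differences, and those nearest the limit. Those named by role or as called beyond this were chosen after their values were seen, and the role groups were made then. Symbols come from RefSeq (Release 6 assembly; 57 of 57 matched), and lengths, overlaps and dm6 coordinates from Ensembl gene models (median over transcripts). A planned motif search and grouping by RefSeq product names were not run, as the reference used here gave no sequences or product names. Pseudocounts, a filter, scalings, a length trend, replicate blocks and left-out libraries were tried as alternatives.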

Additional observations from a re-analysis of the deposited data

How the results depend on the processing

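The count of the 57 genes called higher in mutant mature oocytes stayed within 1.5 times 9 with pseudocounts of 0.5 and 5, a mean of at least 300, median-of-ratios scaling and one replicate block over all stages. With quantile normalisation it was 3, where 0.129% of all records were called higher, and with the length trend removed 19, where 1.85% were. With only the groups compared it was 47 (14.8% of all records). The replicate number as a block inside each stage gave 31 (4.8%), and 46 when the length trend was also removed (17.2%). The main fit called 0.683% of all records higher. The count fell when 1 mature library was left out, as did the calls over all records. For immature oocytes the count was 1, where 0.0369% of all records were called higher. It became 0 with quantile normalisation (0.0184%), with one block over all stages (0%) and with only the groups compared (0%). The call was also lost when any 1 immature library was left out. The count was 17 with the block within stages (2.01% of all records) and 13 when the length trend was also removed (1.83%). For maturation in wild type the count of 0 became 9 with the block within stages and 12 with block and length. In the mutant the count of 0 became 18 and 26 with these settings, 3 with the length trend removed and 1 with only the groups compared. It also rose in some fits without 1 library. The genotype difference in maturation went from 0 to 1 with the block and to 4 with block and length. These maturation counts are given without direction or the share of all records, so nothing about the group is read from them. The 51 egg genes became 33 with the length trend removed, where 3.88% of all records were called higher (7.3% in the main fit). With only the groups compared they became 27 (1.09% of all records). Their number fell when any 1 egg library was left out, most without replicate 2 of wild type, as did the calls over all records. The rule chose the genes by these libraries, so nothing is read from the egg counts. A block with the immature numbers crossed called 1 gene for maturation in wild type and 8 in the mutant, also given without direction or share. Deviations of same-numbered libraries correlated between genotypes at 0.849 (immature), 0.483 (mature) and 0.771 (eggs) within a stage, and at -0.94 to -0.31 for immature against later groups. With 2 numbers per group, pairing within a stage is a hint from the data and not from the labels, and counts of calls depend on it. FASN1 in mature oocytes had an adjusted p of 1.23e-05 in limma with the block within stages, where its other fits gave 5.92e-05 to 0.728. The rule at 0.7 and at 1 took 88 and 20 genes. The direction turned for FASN1 in immature oocytes (0.106 with the length trend removed, also with the block, and -0.803 to 0.196 when a library was left out, the latter without replicate 1 of the mutant), ND-13B (-0.069 with both length settings) and CG2852 (-0.008 with quantile normalisation). The cause was not tested. Median-of-ratios scaling moved the median of all records in eggs from -0.16 to 0.05 and that of the 57 genes from 1.07 to 1.27. A fit without 1 library assumes that the lone sample varies like the other groups. Unknown depth, 2 replicates per group and the lower limit of the table bound all of these values.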
